A study of Arabidopsis thaliana with 9 samples.

Results

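The 10 genes described here encode light receptors and the core of the pathway below them in Arabidopsis thaliana: the phytochrome-interacting factor genes PIF1, PIF3, PIF4, PIF5 and PIF7, the photoreceptor genes PHYA, PHYB and CRY1, the ubiquitin ligase gene COP1 and the transcription factor gene HY5. They were chosen by gene identifier from a count table of 33323 genes, and all 10 were among the 16560 genes with enough counts to be tested. Leaves 12 to 14 were taken on day 49 after sowing; the plants had 20 h of light (28 µmol m-2 s-1) and 4 h of darkness a day. The groups were hac1-1 (SALK_080380), hac1-2 (SALK_136314) and Col-0 wild type (WT), with 3 RNA sequencing libraries each. Both mutants are lines with a T-DNA insertion in HAC1, a histone acetyltransferase gene of the CBP family, and each allele is represented by a single line. The labels call the mutant leaves non-senescent and the WT leaves senescent, so mutation and leaf state cannot be told apart in any comparison with WT. The design text speaks of 1 biological replicate, so the p-values measure the spread between these libraries, which may be technical. The stated purpose of the study was to identify genes that HAC1 may act on.

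Phytochromes sense red and far-red light and cryptochromes sense blue light. Light-activated phytochromes bind PIF proteins, a group of basic helix-loop-helix transcription factors that promote growth in darkness and shade, and cause their breakdown or inactivation. COP1 marks HY5, a bZIP factor that promotes light-dependent development, for degradation, and photoreceptors inhibit COP1. In detached or darkened leaves PIF4 and PIF5 are known to promote senescence, whereas PIF7 is known for its role in the shade response. PIF proteins and HY5 both bind the G-box, the letters CACGTG.

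In the mutant leaves PIF7 was the member with the largest called difference from WT. Its transcript level was 1.90-fold lower in hac1-1 and 1.83-fold lower in hac1-2. PIF5 was 1.27-fold lower in hac1-1, close to the threshold of the test. The 3 photoreceptor genes, COP1 and PIF1, PIF3 and PIF4 passed the test in no comparison, nor did HY5, whose values leaned lower in both mutants. Of the 10 genes, 0 rose and 2 fell in hac1-1 against WT, where 3.51% of all tested genes rose and 9.12% fell. In hac1-2 against WT 0 rose and 1 fell, where 2.85% of all tested genes rose and 7.44% fell. Nothing particular to the members is read from counts this small. The median log2 fold change of the 10 was -0.11 in hac1-1 and -0.04 in hac1-2, beside 0.02 over all tested genes in both comparisons. The tests were edgeR quasi-likelihood tests with Benjamini-Hochberg adjustment over all tested genes, and a gene was called at an adjusted p under 0.05.

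Upstream sequences are shown for the PIF genes that were called and for members that hold the G-box or the PBE-box, described below, close to the gene start. Each is the 250 bases before the annotated start, 5′ to 3′ on the strand of the gene, from the RefSeq reference TAIR10.1. Capitals mark the G-box CACGTG or the PBE-box, a PIF-binding variant with the letters CACATG, searched on both strands, where CATGTG is its reverse complement.
PIF7, chr5:24640766-24641015, minus strand: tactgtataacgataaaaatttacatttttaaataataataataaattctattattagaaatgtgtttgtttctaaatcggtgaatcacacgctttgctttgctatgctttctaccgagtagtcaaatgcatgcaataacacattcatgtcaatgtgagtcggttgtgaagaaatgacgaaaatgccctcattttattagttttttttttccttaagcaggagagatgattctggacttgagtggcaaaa
PIF5, chr3:21830838-21831087, minus strand: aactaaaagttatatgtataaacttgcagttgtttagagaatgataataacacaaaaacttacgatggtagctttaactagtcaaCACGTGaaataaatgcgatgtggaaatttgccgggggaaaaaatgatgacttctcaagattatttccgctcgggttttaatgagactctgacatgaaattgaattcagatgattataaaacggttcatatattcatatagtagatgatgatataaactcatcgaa
PHYB, chr2:8139506-8139755, plus strand: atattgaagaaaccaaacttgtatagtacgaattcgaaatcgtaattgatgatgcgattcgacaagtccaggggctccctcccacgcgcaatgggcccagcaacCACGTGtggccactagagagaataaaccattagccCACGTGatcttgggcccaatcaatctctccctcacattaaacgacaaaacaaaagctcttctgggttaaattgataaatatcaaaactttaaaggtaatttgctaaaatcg
HY5, chr5:3595074-3595323, minus strand: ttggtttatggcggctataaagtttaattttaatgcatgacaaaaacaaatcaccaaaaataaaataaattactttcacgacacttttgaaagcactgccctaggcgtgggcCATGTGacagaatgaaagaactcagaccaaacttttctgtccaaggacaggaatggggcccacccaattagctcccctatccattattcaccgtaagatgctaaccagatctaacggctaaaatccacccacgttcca
The PIF7 window, that of the gene with the largest difference, held neither motif. PIF5 had 1 G-box, from 165 to 160 bases upstream, and PHYB had 2, from 146 to 141 and from 111 to 106 bases upstream. HY5 had 1 PBE-box from 138 to 133 bases upstream. Over all 10 windows, 2 held a G-box and 1 a PBE-box, while 6.49 and 11.1% of the windows of 27443 protein-coding genes did. The shorter ACGT core, which also lies inside the G-box, was found in 6 of 10 members and in 44.1% of all windows. This core is not marked on its own, and the windows of PIF4, PHYA and COP1, which held it alone, are not shown. These are matches of letters, not sites shown to be bound.

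Library totals ran from 5750097 to 9461600 counts, and ribosomal RNA genes took 12.12 to 20.98% of them, with the highest share in hac1-1 replicate 2. HAC1 itself had 58.6, 72.7 and 64.1 CPM (counts scaled to the TMM-adjusted library size) in hac1-1 and 151, 133 and 122 CPM in hac1-2, against 153, 167 and 147 CPM in WT. The gene was 2.39-fold lower in hac1-1 (edgeR adjusted p = 1.2e-08). It did not pass the test in hac1-2 (adjusted p = 0.31), so HAC1 counts check the labels of hac1-1 and not those of hac1-2. Among leaf mesophyll markers all 8 were detected. Their summed levels were 10300 to 11300 CPM in hac1-1, 15000 to 16000 CPM in hac1-2 and 12200 to 13400 CPM in WT. Of the 8, 7 were called lower in hac1-1, and 2 higher (LHCB1.1 and LHCB1.3) and 1 lower in hac1-2. LHCB1.3, whose counts are uncertain as given below, weighed most in these sums. Its means were 5600 CPM in hac1-1, 7664 CPM in hac1-2 and 5362 CPM in WT. The median log2 fold change of the 8 markers was -0.54 in hac1-1 and -0.04 in hac1-2. Of 7 meristem and floral markers, STM, KNAT1, AP1 and AP3 had 0 counts in all libraries, which allows up to 0.318 to 0.520 CPM per library at 3 counts, for counting error only.

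**Figure D1:**
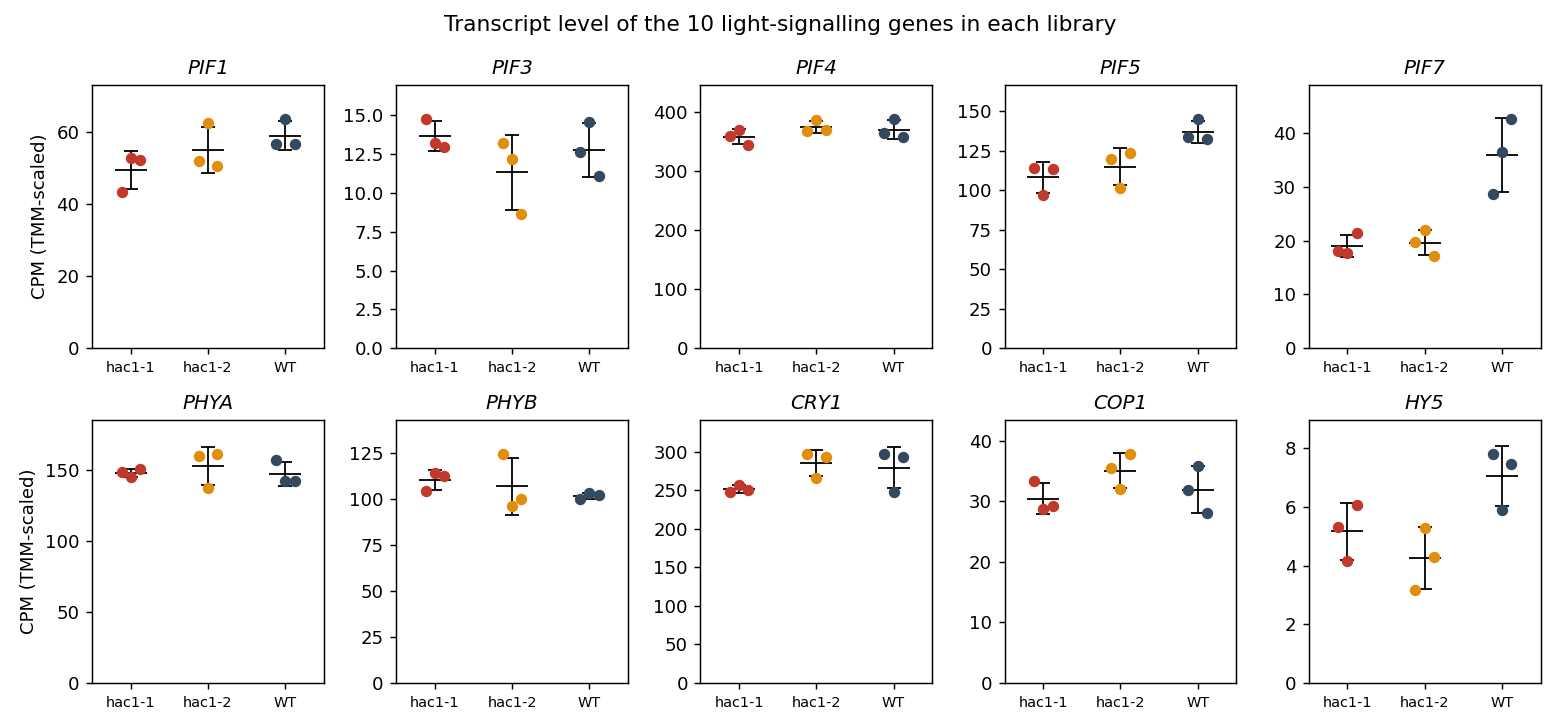
Transcript levels of the 10 genes in CPM on TMM-scaled library sizes (vertical axis, from 0), with 1 point per library for hac1-1, hac1-2 and WT a horizontal line for the mean and whiskers for the SD of 3 libraries. All 6 mutant libraries of PIF7 lie between 17.2 and 21.9 CPM, under the WT libraries at 28.8 to 42.6 CPM, while the groups of PIF4 and PHYA overlap.

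Within the PIF family, PIF7 encodes a factor that is stable in light and drives shade responses. The PIF7 locus (AT5G61270, chromosome 5, 24638491 to 24640765, minus strand) has 5 or 6 exons depending on the transcript. It had 18.1, 17.6 and 21.5 CPM in hac1-1 and 19.8, 21.9 and 17.2 CPM in hac1-2, against 28.8, 36.6 and 42.6 CPM in WT. Every mutant library was below every WT library, which held, in the direction of lower levels, for 15.7% of all tested genes in hac1-1 and 15.5% in hac1-2. Means were 19.06 ± 2.095 CPM in hac1-1 and 19.65 ± 2.348 CPM in hac1-2, against 36.01 ± 6.93 CPM in WT (SD, n = 3), so the WT libraries were the more spread. The log2 fold change was -0.92 in hac1-1 (SE 0.17, edgeR adjusted p = 0.00028). In hac1-2 it was -0.87 (SE 0.17, edgeR adjusted p = 0.00057). Between the mutants the log2 fold change of hac1-2 against hac1-1 was 0.05, with a 95% interval of -0.30 to 0.41 (edgeR adjusted p = 0.94) and no call. In bulk leaves, fewer cells that express a gene and less RNA per cell cannot be told apart.

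PIF7 overlaps a neighbour on the opposite strand. In TAIR10.1 the gene AT5G61260 ends inside PIF7, and 318 exonic bases of PIF7 lie within the span of AT5G61260. The counting strand was not given in the sources used here, so reads from that stretch cannot be assigned. AT5G61260 had 8, 11 and 13 counts in hac1-1 and 12, 34 and 12 counts in hac1-2, against 32, 21 and 49 counts in WT. PIF7 had 375 counts in all over the hac1-1 libraries and 479 over the hac1-2 libraries, against 768 over the WT libraries. The neighbour had fewer counts than PIF7 in all 9 libraries and was also lower in hac1-1 (2.87-fold, edgeR adjusted p = 0.025). In hac1-2 it did not pass the test (2.02-fold lower, adjusted p = 0.14). Its part in the PIF7 difference was not tested.

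PIF4 and PIF5 are close relatives that promote growth in warmth and shade. PIF5 was called in hac1-1 alone and PIF4 in no comparison, and they were not tested against each other. PIF5 (AT3G59060, chromosome 3, 21827905 to 21830837, minus strand) had 114, 97.1 and 114 CPM in hac1-1 and 120, 102 and 124 CPM in hac1-2, against 134, 145 and 132 CPM in WT. In CPM all mutant libraries were below all WT libraries, as for 15.7% of all tested genes in hac1-1 and 15.5% in hac1-2. In the deposited FPKM, which scales counts by gene length and library total, hac1-2 overlapped with WT. There hac1-2 replicate 3 (62.3) was above WT replicates 1 (61.8) and 3 (62.0). The log2 fold change was -0.34 in hac1-1 (SE 0.11, edgeR adjusted p = 0.046). This call was lost in 14 of 20 alternatives, among them leaving out WT replicate 1 (adjusted p = 0.092), 2 (0.13) or 3 (0.081) and hac1-1 replicate 1 (0.052), 2 (0.16) or 3 (0.070). Leaving out hac1-2 replicate 1 (0.056) or 3 (0.054) also ended it, and adjusted p ran from 0.022 to 0.16 over all alternatives. In hac1-2 the log2 fold change was -0.25, with a 95% interval of -0.48 to -0.02 and an edgeR adjusted p of 0.17, so it was not called.

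PIF4 (AT2G43010, chromosome 2, 17886101 to 17889087, plus strand) varied least of all members. It had 360, 370 and 344 CPM in hac1-1 and 368, 386 and 369 CPM in hac1-2, against 364, 388 and 357 CPM in WT. The groups overlapped, and the 95% interval of the log2 fold change was -0.25 to 0.16 in hac1-1 and -0.18 to 0.22 in hac1-2. Its edgeR adjusted p was 0.84 in hac1-1 and 0.94 in hac1-2. Over the 9 libraries the coefficient of variation of its FPKM, which scales counts by gene length and library total, was 4.50%, against 34.8% for PIF7, 25.7% for HY5 and 7.39 to 14.8% for the other members.

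PIF1, which holds back germination and chlorophyll synthesis in the dark, and PIF3, the first PIF found to bind phytochrome, were not called. PIF1 (AT2G20180, chromosome 2, 8704024 to 8707009, minus strand) had 43.5, 52.8 and 52.5 CPM in hac1-1 and 52.2, 62.6 and 50.6 CPM in hac1-2, against 56.8, 63.6 and 56.8 CPM in WT. The hac1-1 libraries lay below the WT libraries, as for 15.7% of all tested genes, whereas hac1-2 overlapped with WT. Its log2 fold change was -0.25 in hac1-1 (95% interval -0.52 to 0.01, edgeR adjusted p = 0.22) and -0.10 in hac1-2 (adjusted p = 0.73). PIF3 (AT1G09530, chromosome 1, 3075768 to 3079654, plus strand) was the lowest of the 5 per length. It had 14.8, 13.2 and 13.0 CPM in hac1-1 and 13.2, 12.2 and 8.62 CPM in hac1-2, against 12.6, 14.6 and 11.1 CPM in WT. All 3 groups overlapped, and the 95% intervals on the log2 scale were -0.32 to 0.53 in hac1-1 (edgeR adjusted p = 0.81) and -0.59 to 0.27 in hac1-2 (0.72).

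**Figure D2:**
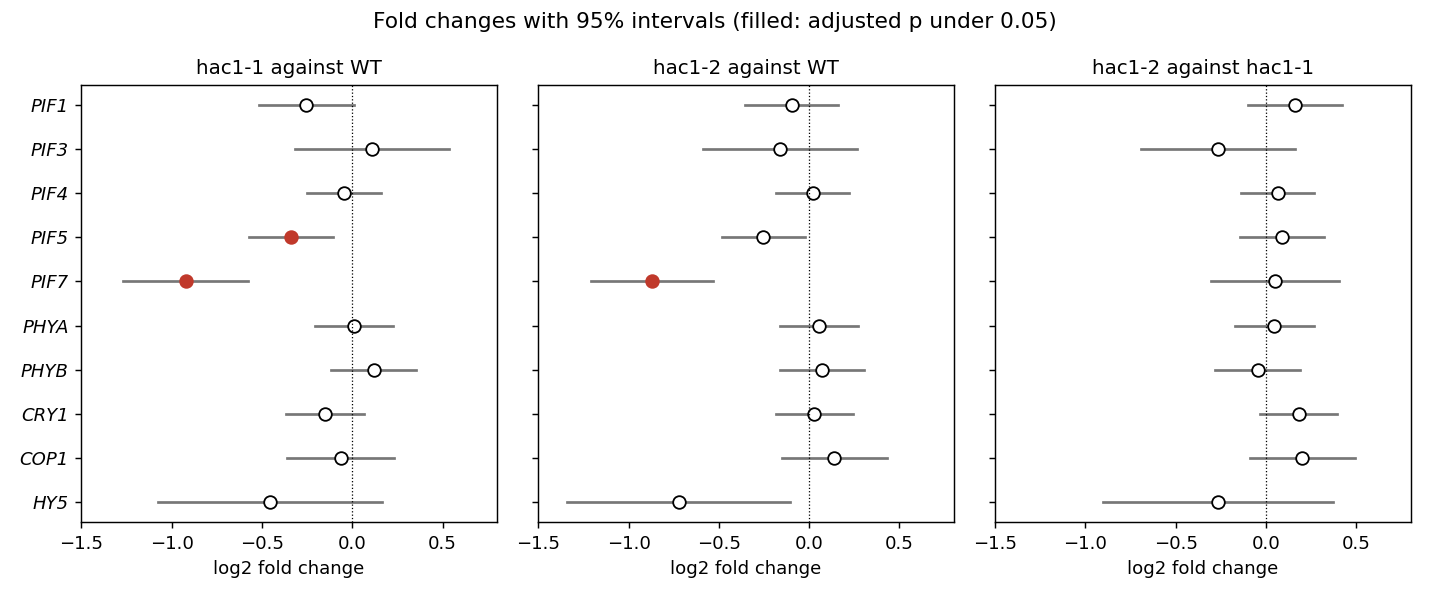
Log2 fold changes (horizontal axis) of the 10 genes in the 3 comparisons, with lines for 95% intervals and filled points for genes at an edgeR adjusted p under 0.05. PIF7 is filled at -0.92 in hac1-1 and -0.87 in hac1-2, PIF5 is filled in hac1-1 alone, and no point is filled between the mutants.

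The make-up of the summed transcript level of these 5 PIF genes is described here. PIF6 and PIF8, given below, are not part of this sum. Summed over the 5 PIF genes, FPKM was 302 ± 6.79 in hac1-1 and 322 ± 2.97 in hac1-2, against 328 ± 19.6 in WT (SD, n = 3), with overlap between hac1-2 and WT. PIF4 took 65.8 to 69.6% of that sum in hac1-1 libraries and 66.9 to 68.4% in hac1-2 libraries, against 61.6 to 63.6% in WT libraries. PIF7 took 3.96 to 4.89% in hac1-1 and 3.76 to 4.64% in hac1-2, against 7.26 ± 1.40% in WT (SD, n = 3). For both genes the mutant shares lay apart from the WT shares, a description that follows from the levels above and was given no test of its own. PIF4 FPKM was 15.9 ± 2.17 times PIF7 FPKM in hac1-1 and 16.1 ± 1.67 times in hac1-2, against 8.83 ± 1.78 times in WT.

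**Figure D3:**
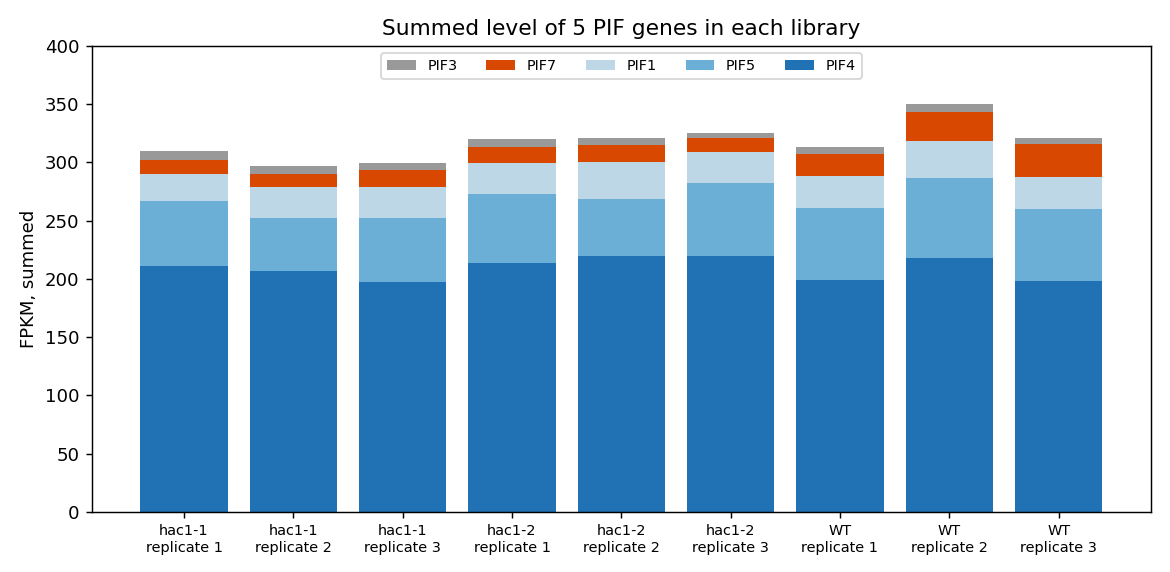
FPKM of the 5 PIF genes stacked for each library (vertical axis, from 0), with the hac1-1, hac1-2 and WT libraries in turn. The PIF4 block is 197 to 220 FPKM high in all 9 libraries, and the PIF7 block is 11.8 to 14.9 FPKM in mutant libraries and 18.8 to 28.2 FPKM in WT libraries.

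The 3 photoreceptor genes passed the test in no comparison. PHYA, the receptor for far-red light (AT1G09570, chromosome 1, 3095160 to 3100819, minus strand), had 148, 145 and 150.3 CPM in hac1-1 and 159.7, 137 and 161 CPM in hac1-2, against 157, 142 and 142 CPM in WT. The libraries were mixed, with 95% intervals of -0.21 to 0.23 in hac1-1 and -0.16 to 0.27 in hac1-2 on the log2 scale (edgeR adjusted p = 0.97 and 0.83). PHYB, the main receptor for red light and the one that binds PIF4, PIF5 and PIF7 (AT2G18790, chromosome 2, 8139756 to 8144461, plus strand), had 104, 114 and 112 CPM in hac1-1 and 124, 95.8 and 100 CPM in hac1-2, against 99.6, 103 and 102 CPM in WT. The hac1-1 libraries lay just above the WT libraries, as for 11.9% of all tested genes. The log2 fold change in hac1-1 was 0.12 and did not pass the test (edgeR adjusted p = 0.58). In hac1-2 it was 0.07 (adjusted p = 0.78).

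CRY1, the blue-light receptor (AT4G08920, chromosome 4, 5723651 to 5727268, plus strand), had 248, 257 and 249 CPM in hac1-1 and 296, 266 and 292 CPM in hac1-2, against 297, 248 and 292 CPM in WT. The hac1-2 libraries were all above the hac1-1 libraries, as for 9.85% of all tested genes, and WT replicate 2 lay with hac1-1. The log2 fold change of hac1-2 against hac1-1 was 0.18 (95% interval -0.04 to 0.40, edgeR adjusted p = 0.46). Against WT it was -0.15 in hac1-1 and 0.03 in hac1-2 (adjusted p = 0.41 and 0.91). The ratio of PHYA to PHYB FPKM was 1.33 to 1.49 in hac1-1 and 1.34 to 1.68 in hac1-2, against 1.44 to 1.64 in WT, so the groups overlapped.

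COP1, an E3 ubiquitin ligase gene, and HY5, the gene of its best known substrate, were called in no comparison. COP1 (AT2G32950, chromosome 2, 13977881 to 13983609, plus strand, 13 exons) had 33.4, 28.7 and 29.3 CPM in hac1-1 and 35.5, 32.0 and 37.8 CPM in hac1-2, against 31.9, 35.9 and 28.1 CPM in WT. All groups overlapped (edgeR adjusted p = 0.84 in hac1-1 and 0.64 in hac1-2).

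HY5 (AT5G11260, chromosome 5, 3593335 to 3595073, minus strand, 4 exons) was the least counted member, with 40, 27 and 35 counts in hac1-1 and 23, 50 and 32 counts in hac1-2, against 55, 34 and 62 counts in WT. In CPM that was 5.32, 4.14 and 6.06 in hac1-1 and 3.17, 5.29 and 4.31 in hac1-2, against 7.80, 5.90 and 7.47 in WT. The hac1-2 libraries were all below the WT libraries, as for 15.5% of all tested genes, while hac1-1 overlapped with WT. The log2 fold change was -0.72 in hac1-2 (95% interval -1.34 to -0.10, unadjusted p = 0.024 and edgeR adjusted p = 0.14) and -0.46 in hac1-1 (-1.08 to 0.16, adjusted p = 0.38). The HY5 intervals were the widest among the members. COP1 FPKM was 1.85 to 2.66 times HY5 FPKM in hac1-1 and 2.32 to 4.31 times in hac1-2, against 1.44 to 2.34 times in WT.

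Per gene length, the members spanned a wide range of levels. Means over all 9 libraries were 209 FPKM for PIF4, 106 for CRY1, 57.8 for PIF5, 38.9 for PHYA, 27.4 for PIF1, 26.5 for PHYB, 16.8 for PIF7, 13.8 for COP1, 6.22 for PIF3 and 6.06 for HY5. Library ranges did not overlap between PIF4, CRY1, PIF5, PHYA and PIF1 in that order, nor between COP1 and PIF3. Those of PIF1 and PHYB, of PHYB and PIF7, of PIF7 and COP1, and of PIF3 and HY5 did overlap. The place of PIF7 differed by genotype: it stood at 11.8 to 14.7 FPKM in hac1-1 and 12.2 to 14.9 FPKM in hac1-2, overlapping the COP1 ranges of 12.0 to 14.6 and 13.6 to 16.8 FPKM, whereas in WT its 18.8 to 28.2 FPKM was above the 11.6 to 15.1 FPKM of COP1. No member had another genomic match with 95% or more identical bases along 50% or more of its exons.

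Between the mutants 0 of the 10 members were called by edgeR, 0 had an unadjusted p under 0.05 and 0 were called by DESeq2, where edgeR called 2.84% of all tested genes, 1.86% higher and 0.978% lower. CRY1 was the 1 member whose groups did not overlap, where 9.85% of all tested genes were higher and 8.36% lower without overlap. The log2 fold changes of hac1-2 against hac1-1 ran from -0.27 to 0.20.

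Other genes of the pathway were described by lists written from general knowledge with earlier results of these data known, 82 entries in 8 lists. In hac1-1 12.6% of all tested genes were called and in hac1-2 10.3%, against which the counts of each list can be read. Among the other photoreceptor genes 0 of 10 were called in hac1-1 by edgeR, where 1 had an unadjusted p under 0.05 and DESeq2 called 0, and 1 fell in hac1-2. That gene was PHOT2, a blue-light receptor for chloroplast movement, at 217 ± 28.5 CPM in hac1-1 and 198 ± 4.93 CPM in hac1-2, against 253 ± 9.60 CPM in WT (SD, n = 3; edgeR adjusted p = 0.21 and 0.037). The hac1-2 call ended in 11 of 20 alternatives. It was lost when any single hac1-2 or WT library was left out (adjusted p 0.078 to 0.12) and with library size as the only scaling (0.10). Upper quartile factors (0.054) and the 3 limma fits on FPKM (0.16 to 0.17) also ended it. Of 5 tested PIF-related factors, 1 was called, PIF6 in hac1-1. It had 13.0 ± 4.42 CPM in hac1-1 and 9.03 ± 1.06 CPM in hac1-2, against 5.51 ± 0.853 CPM in WT, 2.37-fold higher in hac1-1 (edgeR adjusted p = 0.0013) and 1.65-fold, without a call, in hac1-2 (0.087). PIF8, named after its values were seen, had 4.36 ± 1.53 CPM in hac1-1 and 4.95 ± 0.490 CPM in hac1-2, against 8.13 ± 0.837 CPM in WT, with no overlap between either mutant and WT. It was not called (edgeR adjusted p = 0.052 in hac1-1 and 0.13 in hac1-2), but passed in hac1-1 without hac1-1 replicate 1 (0.020) and with a replicate block (0.042), which makes 2 calls in this list. In the hac1-2 comparison with WT 2 of the 5 had an unadjusted p under 0.05 and DESeq2 called 0.

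COP1 partners and COP/DET complex genes had 0 calls among 10 tested members in either comparison with WT by edgeR. At an unadjusted p under 0.05 there were 1 in hac1-1 and 0 in hac1-2, and DESeq2 called 0 in both. Without hac1-1 replicate 2 there was 1 call in hac1-1, DET1 (log2 fold change 0.41, edgeR adjusted p = 0.031), which was named after its values were seen. Genes of phytochrome A import and signalling had 0 calls among 6, 0 with an unadjusted p under 0.05 and 0 by DESeq2 in both.

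HY5 partners and B-box factors had 1 higher and 1 lower call among 9 tested members in hac1-1, and 1 higher and 2 lower calls in hac1-2. HYH, the closest relative of HY5, had 6.44 ± 2.09 CPM in hac1-1 and 4.25 ± 0.774 CPM in hac1-2, against 10.03 ± 1.56 CPM in WT. It fell 2.34-fold in hac1-2 (edgeR adjusted p = 0.0045) and did not pass the test in hac1-1 (adjusted p = 0.14). The other calls in this list were lost when single libraries were left out. BBX22, a B-box factor that acts with HY5, was higher at 32.8 ± 4.92 CPM in hac1-1 and 30.3 ± 4.08 CPM in hac1-2, against 21.1 ± 5.02 CPM in WT (edgeR adjusted p = 0.013 and 0.047). The call in hac1-1 was lost without WT replicate 3 (0.13) or hac1-1 replicate 3 (0.085). That in hac1-2 was lost in 8 of 20 alternatives. These were leaving out WT replicate 1 (0.067) or 3 (0.30) or hac1-2 replicate 1 (0.11) or 2 (0.20), DESeq2 (0.070) and the 3 limma fits on FPKM (0.061 to 0.066). BBX25, which opposes HY5, had 11.9 ± 1.46 CPM in hac1-1 and 17.98 ± 1.86 CPM in hac1-2, against 18.2 ± 2.78 CPM in WT, a fall in hac1-1 (adjusted p = 0.029) lost when WT replicate 1 (0.16), WT replicate 3 (0.073), hac1-1 replicate 1 (0.10) or hac1-1 replicate 2 (0.060) was left out. BBX20, a B-box factor, had 2.24 ± 0.941 CPM in hac1-1 and 1.05 ± 0.187 CPM in hac1-2, against 3.45 ± 0.584 CPM in WT. Its fall in hac1-2 (adjusted p = 0.022) was lost without any of the 3 hac1-2 libraries or WT replicate 1 or 3 (adjusted p 0.055 to 0.099).

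**Figure D4:**
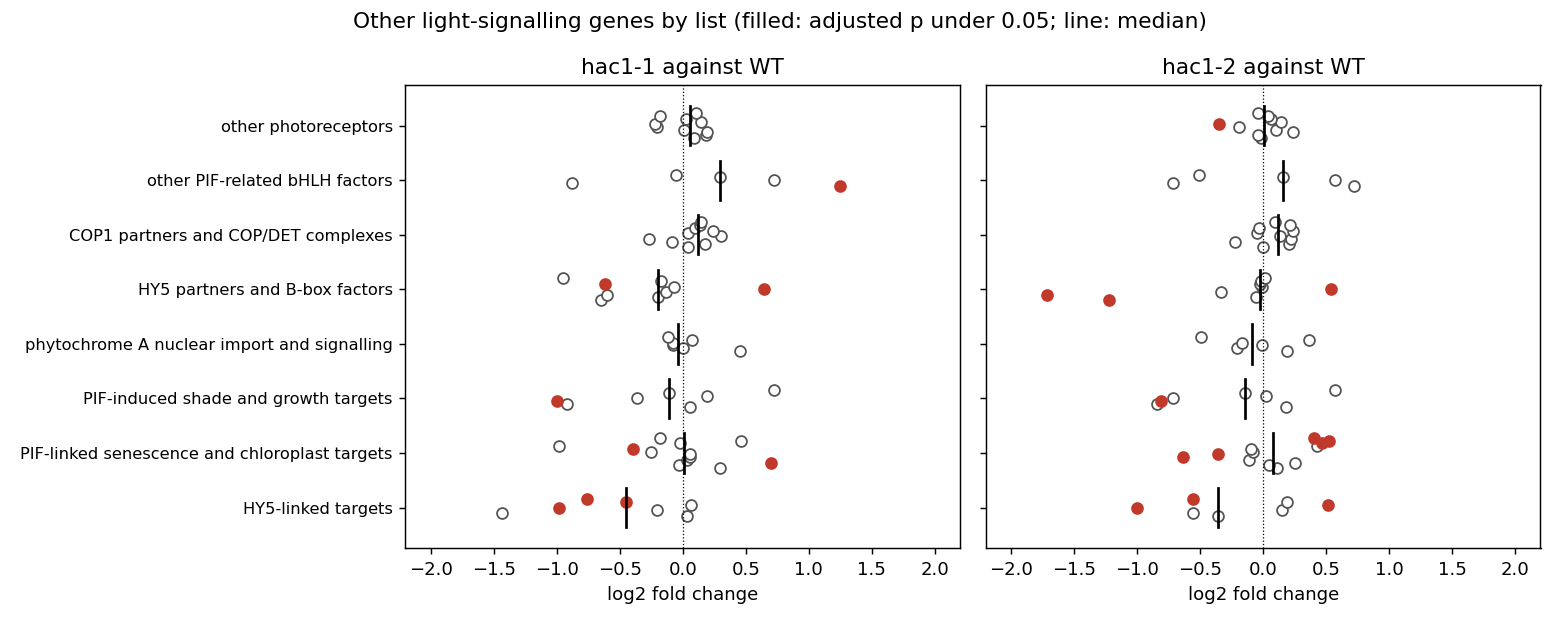
Log2 fold changes (horizontal axis) of the tested genes of 8 light-signalling lists in hac1-1 and hac1-2 against WT, 1 point per gene, filled at an edgeR adjusted p under 0.05, with a line at each list's median. Medians lie between -0.45 and 0.30, and the lists of COP1 partners and of phytochrome A signalling hold no filled point.

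Genes that PIF proteins are known to induce in shade were in part too low to test: 7 of 12 were tested, and XTR7 and PRE5 had 0 counts in every library. In each comparison with WT 1 of the 7 fell and 0 rose. It was HAT3, an HD-ZIP transcription factor gene of the shade response, at 10.5 ± 1.41 CPM in hac1-1 and 11.9 ± 1.302 CPM in hac1-2, against 20.9 ± 2.27 CPM in WT. The fall was 2.00-fold in hac1-1 and 1.75-fold in hac1-2 (edgeR adjusted p = 0.00051 and 0.0041). Both comparisons share the WT libraries.

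Genes of senescence and the chloroplast that have been linked to PIFs went both ways. Of 12 tested, 1 rose and 1 fell in hac1-1, and 3 rose and 2 fell in hac1-2, with medians of 0.01 and 0.08. PORB, an enzyme gene of chlorophyll synthesis, had 103 ± 11.5 CPM in hac1-1 and 145 ± 7.83 CPM in hac1-2, against 104.7 ± 10.14 CPM in WT, and rose in hac1-2 (edgeR adjusted p = 0.0062). CHLH, a magnesium chelatase subunit gene, had 229 ± 3.94 CPM in hac1-1 and 343 ± 25.4 CPM in hac1-2, against 259.8 ± 13.3 CPM in WT, and rose in hac1-2 (adjusted p = 0.0093), a call lost without hac1-2 replicate 3 (0.058). GLK2, a regulator of chloroplast development, had 241 ± 26.3 CPM in hac1-1 and 297 ± 13.4 CPM in hac1-2, against 318 ± 0.811 CPM in WT, a fall in hac1-1 (adjusted p = 0.011) lost without hac1-1 replicate 3 (0.096). NYE1, a gene for chlorophyll breakdown, had 23.9 ± 2.74 CPM in hac1-1 and 14.8 ± 1.92 CPM in hac1-2, against 22.8 ± 2.36 CPM in WT. It fell in hac1-2 (adjusted p = 0.013), a call lost when hac1-2 replicate 2 (0.096), WT replicate 1 (0.069) or WT replicate 3 (0.062) was left out. The other calls of this list, named after their values were seen, were those of ABI5, PORC and NYC1. ABI5 was higher in hac1-1 (edgeR adjusted p = 0.027). That call ended when WT replicate 1 (0.070), WT replicate 2 (0.13) or hac1-1 replicate 3 (0.14) was left out. PORC was higher in hac1-2 (0.048), a call lost in 8 of 20 alternatives: no filter (0.063), DESeq2 (0.073) and leaving out any single WT or hac1-2 library (0.079 to 0.16). Its log2 fold change was 0.46 in hac1-1, without a call (edgeR adjusted p = 0.081), beside 0.52 in hac1-2. The 3 limma fits called PORC higher in hac1-1 (limma adjusted p 0.036 to 0.04). NYC1 was lower in hac1-2 (0.041), a call lost in 10 of 20: library size only (0.11), upper quartile factors (0.056), the 3 limma fits (0.17) and leaving out WT replicate 1 (0.071) or 3 (0.25) or any single hac1-2 library (0.065 to 0.18). With 1 library left out, the number of calls in this list ran from 0, without hac1-1 replicate 3, to 3, without hac1-1 replicate 2, in hac1-1, and from 2 to 5 in hac1-2.

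Of the genes linked to HY5, 7 of 12 were tested, while CHS, FLS1, ELIP1 and ELIP2, genes of flavonoid synthesis and light protection, had at most 13 counts in any group and MYB12 had 0. In hac1-1 3 of the 7 fell and 0 rose, and in hac1-2 2 fell and 1 rose. NIA2, a nitrate reductase gene, had 392.5 ± 16.3 CPM in hac1-1 and 387 ± 1.70 CPM in hac1-2, against 775 ± 26.7 CPM in WT (edgeR adjusted p = 3.3e-08 and 3.4e-08). CAT2, a leaf catalase gene, fell to 122 ± 7.78 CPM in hac1-1 and 139.8 ± 6.68 CPM in hac1-2, against 206 ± 10.8 CPM in WT (adjusted p = 7.5e-06 and 0.00049). RBCS1A, a Rubisco small subunit gene, had 484 ± 28.4 CPM in hac1-1 and 754 ± 23.2 CPM in hac1-2, against 661 ± 84.1 CPM in WT, and fell in hac1-1 (adjusted p = 0.0043; 0.31 in hac1-2). LHCB1.3, a light-harvesting gene whose counts are uncertain because of near-identical relatives, rose in hac1-2 to 7664 ± 118 CPM, against 5362 ± 476 CPM in WT (adjusted p = 0.00093).

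Markers of senescence, guard cells and phloem held called genes in at least 1 mutant, whereas epidermal markers held no called gene. Senescence markers were called lower in 4 of 4 tested members in both mutants, with summed levels of 231 to 269 CPM in hac1-1 and 308 to 353 CPM in hac1-2, against 598 to 669 CPM in WT, while SAG12 had 5, 0 and 6 counts over the hac1-1, hac1-2 and WT libraries. Guard cell markers summed to 52.3 to 54.5 CPM in hac1-1 and 43.8 to 47.8 CPM in hac1-2, against 60.3 to 73.7 CPM in WT, with 0 and 2 of 5 tested members called lower. Phloem markers summed to 102 to 120 CPM in hac1-1 and 119 to 126 CPM in hac1-2, against 165 to 183 CPM in WT, with 2 and 1 of 3 called lower. Epidermal markers, with 0 of 5 tested called by edgeR and 0 in hac1-1 and 1 in hac1-2 at an unadjusted p under 0.05, summed to 171 to 195 CPM in hac1-1 and 200 to 221 CPM in hac1-2, against 163 to 196 CPM in WT. In that list, as in the guard cell list, 1 member (PDF1 and EPF1) had at most 2 counts in any group. The part of the marker differences in the PIF7 and PIF5 values was not tested.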

How the data were processed

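The 9 leaf libraries, 3 each of hac1-1, hac1-2 and WT, were prepared with the strand-specific BrAD-seq method, per the labels' protocols. Deposited by the authors were a table of raw counts (33323 genes) and a table of FPKM values (18168 genes), made against genome build TAIR10 per the submitters' processing notes. The sources used here do not give the aligner, counting program, counting strand or annotation. In the deposited FPKM table each gene is scaled by 1 length, from 902 bases for HY5 to 3996 for PHYB among the members.

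The main test was the quasi-likelihood test of edgeR 4.0.16 (R 4.3.3) on 16560 genes kept by filterByExpr with a minimum count of 10. With TMM scaling, 1 fit over all 9 libraries compared hac1-1 with WT, hac1-2 with WT and hac1-2 with hac1-1, with Benjamini-Hochberg adjustment. The biological coefficient of variation was 13.7%. CPM values use TMM-scaled library sizes, and a limit of 3 counts equals 0.318 to 0.520 CPM. Intervals are 95% intervals from the quasi-likelihood fit. DESeq2 1.42.0 on counts, and limma 3.58.1 on log2 values of the deposited FPKM plus 1 or 0.1, served as alternatives, as did other scalings, no filter, only the groups compared, ribosomal RNA rows left out, a replicate block and leaving out each library. Tests were checked on simulated counts.

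The members and lists were chosen with earlier results of these data known. Named genes were HAC1, the 10 members and, per list, up to 4 called genes with the smallest adjusted p. CSN5B and other genes under the count filter were not tested, and GAS1, listed as a phloem marker, had no identifier in the tables. Positions and sequences came from the RefSeq reference TAIR10.1, copies were searched with blastn 2.17.0, and figures were drawn with matplotlib 3.10.9. Proteins were not analysed here.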

Additional observations from a re-analysis of the deposited data

Results flagged for a closer look

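For 6 genes of the light-signalling lists the difference from WT was not the same in the mutants, as tested by the contrast of hac1-2 against hac1-1 in edgeR. The log2 fold change in that contrast was 0.49 for PORB (edgeR adjusted p = 0.015), 0.58 for CHLH (0.0012), -0.70 for NYE1 (0.021), -0.42 for NYC1 (0.044), 0.45 for LHCB1.3 (0.012) and 0.64 for RBCS1A (0.00068). They were 4 of 12 tested genes of the PIF-linked chloroplast list and 2 of 7 of the HY5-linked list, where 2.84% of all tested genes were called, and 4 were higher and 2 lower in hac1-2. These lists hold mostly genes chosen for links to the chloroplast, senescence or HY5, so the kind of gene follows from the lists. The lists were also written with earlier results of these data known. Leaf mesophyll markers also differed in this contrast: 7 of 8 were called higher in hac1-2, with a median log2 fold change of 0.56, and LHCB1.3 and RBCS1A belong to that list too. Their part in these differences was not tested. Calls of PORB, NYE1, NYC1 and LHCB1.3 were lost when single libraries were left out: PORB without hac1-1 replicate 1 (0.051) or 3 (0.11) or hac1-2 replicate 1 (0.062) or 3 (0.076), NYE1 without hac1-1 replicate 2 (0.075) or hac1-2 replicate 2 (0.13) or 3 (0.074), NYC1 without WT replicate 1 (0.062), hac1-1 replicate 2 (0.070) or 3 (0.25) or hac1-2 replicate 1 (0.079), 2 (0.20) or 3 (0.13), and LHCB1.3 without hac1-1 replicate 1 (0.060) or 3 (0.091) or hac1-2 replicate 3 (0.054). NYE1, NYC1 and LHCB1.3 also lost theirs in the 3 limma fits, and NYC1 with library size only (0.063). None of the 10 members was called in this contrast.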

How the results depend on the processing

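The 10 members gave 600 log2 fold changes over 3 comparisons and 20 alternatives, of which 573 kept their direction and their side of the threshold, 14 lost a call and 13 changed sign. PIF7 kept its call in both comparisons with WT under all 20, with log2 fold changes of -1.06 to -0.78 in hac1-1 (adjusted p up to 0.0064) and -1.01 to -0.73 in hac1-2 (up to 0.012). The 14 lost calls were all of PIF5 in hac1-1, so that 1 member instead of 2 was called there with library size only, upper quartile factors, only the 2 groups compared, or limma on FPKM with either pseudocount or no filter, and 1 to 2 when a library was left out. Sign changes were those of values near 0 that were never called: PIF4 in hac1-1 was 0.00 in the 3 limma fits. Leaving out single libraries gave -0.02 to 0.06 for PHYA and -0.15 to 0.02 for COP1 in hac1-1, -0.05 to 0.08 for CRY1, -0.05 to 0.15 for PHYB and 0.00 to 0.05 for PIF4 in hac1-2, and -0.17 to 0.03 for PHYB and -0.04 to 0.14 for PIF7 between the mutants. Genes called between the mutants numbered 470, against 721 without a filter, 260, 251 and 252 in the limma fits and 204 to 548 with a library left out (240 without hac1-1 replicate 3, 249 without hac1-2 replicate 2 and 204 without hac1-2 replicate 3), while the counts in both comparisons with WT stayed within 1.5 times. With library size only, called genes were lower in 62.5% of cases in hac1-1 and 57.8% in hac1-2, against 72.2 and 72.3% with TMM. No label says what a replicate number marks, so the main model held no replicate block. Same-numbered replicates deviated together with correlations of 0.013 to 0.179, over 0.1 in 1 of 9 pairs. Of 18 best matches, 16 fell on the same number. Whether same-numbered libraries share a batch was not tested. A replicate block gave 715 calls between the mutants, against 470 without it, and changed no call of a member. TAIR10.1 exon lengths were also used, a choice made after seeing the data. With them PIF4 took 63.8% of the sum of the 5 PIF genes in hac1-1 and 63.6% in hac1-2, against 58.3% in WT. HY5 and PIF3 had the fewest counts, and their intervals are the widest. The cause of these shifts was not tested.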
